A study of Mus musculus with 39 samples.

Results

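The protamine and transition protein genes Prm1, Prm2, Prm3, Tnp1 and Tnp2 were examined in single cells of mouse testis. They are 5 of the 32285 genes in the deposited feature lists and were taken by symbol. Each symbol matched 1 entry. A single control library came from whole testis of Kdm6a fl/y; Cre- males, and 1 knockout library (cKO) came from whole testis of Kdm6a fl/y; Ddx4-Cre+ males. Both groups carry the floxed allele of Kdm6a. This gene on the X chromosome encodes an enzyme that takes methyl groups off lysine 27 of histone H3. Ddx4 is a germ-cell gene, so Cre acts in germ cells and the somatic cells of the cKO testis keep the gene. The labels give neither the age nor the number of the males behind each library. For the chromatin around the genes, sorted cKIT+ spermatogonia of both genotypes had been profiled for open chromatin (ATAC-seq) and for trimethylated lysine 27 of histone H3 (H3K27me3, by CUT&Tag), in 2 control and 3 cKO libraries each.

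Protamines are small basic proteins that wrap DNA in the sperm head, after histones have been removed. The transition proteins TNP1 and TNP2 occupy the DNA for a short time in between. The genes are transcribed in round spermatids, and their mRNAs are stored in the cytoplasm and translated days later, when the spermatid elongates and transcription has stopped. PRM1 and PRM2 are the protamines of mouse sperm, and PRM2 is made as a precursor that is trimmed. Prm3 lies between them and Tnp2 in the genome but encodes an acidic protein found in the cytoplasm.

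With 1 library per genotype there is no replicate check, and no p-value is given. Intervals are exact 95% intervals that cover counting error only, and genotype and library cannot be told apart. Cells were barcodes with at least 3000 UMIs (unique molecules counted), 11252 in the control library and 8520 in the cKO library, with median depths of 8411 and 8499 UMIs. The libraries held 229882646 and 172368722 UMIs, of which 57.8% and 57.5% lay in cells. They shared 30 cell barcodes, where the length of the kit's barcode list gives 14.1 by expectation. Kdm6a had 304 UMIs in control cells (2.29 counts per 1e6 UMIs, CPM) and 75 in cKO cells (0.757 CPM), and the 3' tags counted may lie outside the deleted part. Barcodes of at least 300 and under 2000 UMIs stood for free RNA, the RNA of broken cells that enters every droplet. There were 58524 in control, with a mean of 1336 UMIs, and 66902 in cKO, with a mean of 906 UMIs.

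The genes lie in 2 places (GRCm38, the mm10 assembly). Prm1 (ENSMUSG00000022501) spans chr16:10796332-10796823, Prm2 (ENSMUSG00000038015) chr16:10791377-10792105, Prm3 (ENSMUSG00000050058) chr16:10790508-10790914 and Tnp2 (ENSMUSG00000043050) chr16:10787935-10788655. All 4 are read from the minus strand, in the order Prm1, Prm2, Prm3, Tnp2, with start sites 4718, 5909 and 8168 bases after that of Prm1. Tnp1 (ENSMUSG00000026182) stands alone at chr1:73015074-73015899, also on the minus strand. The 150 bases before each start site come from the RefSeq promoter table (GRCm38.p6, all 5 matched). They are printed because all the genes are used in spermatids while their start regions differ in letters. Each is written 5' to 3' on the gene's strand. Capitals mark matches to TGANNTCA, to CCAAT, to TATAAA on either strand, and to TATA in the stretch from -40 to -20, where -1 is the last base before the start site.
Prm1: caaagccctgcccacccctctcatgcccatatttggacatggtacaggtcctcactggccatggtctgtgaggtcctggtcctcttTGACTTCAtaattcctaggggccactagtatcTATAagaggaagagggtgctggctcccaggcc
Prm2: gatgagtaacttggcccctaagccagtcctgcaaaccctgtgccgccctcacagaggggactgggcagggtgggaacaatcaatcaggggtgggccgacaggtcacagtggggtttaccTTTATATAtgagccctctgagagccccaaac
Prm3: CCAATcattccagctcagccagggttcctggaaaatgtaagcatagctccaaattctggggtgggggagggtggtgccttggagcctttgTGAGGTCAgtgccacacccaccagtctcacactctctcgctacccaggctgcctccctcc
Tnp1: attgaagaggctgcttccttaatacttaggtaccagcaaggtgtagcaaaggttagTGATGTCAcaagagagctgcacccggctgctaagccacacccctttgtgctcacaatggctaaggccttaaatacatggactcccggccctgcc
Tnp2: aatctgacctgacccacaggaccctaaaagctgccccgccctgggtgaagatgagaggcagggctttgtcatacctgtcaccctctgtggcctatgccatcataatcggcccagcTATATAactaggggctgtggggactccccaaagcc

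The printed stretches are chr16:10796824-10796973 (Prm1), chr16:10792106-10792255 (Prm2), chr16:10790915-10791064 (Prm3), chr1:73015900-73016049 (Tnp1) and chr16:10788656-10788805 (Tnp2). Their GC content was 51.3% (Tnp1) to 58.0% (Prm3), where the median over 32851 promoter windows was 54.0%. CREM, the activator best known at these genes, binds cAMP response elements, whose full form is TGACGTCA. Searched on both strands over 250 bases before to 50 after the start site, TGACGTCA was in 0 of the 5 windows and in 1.79% of all windows. Its shorter form TGACG was in 0 of 5 and in 20.8% of all windows. The looser form TGANNTCA, chosen after the letters were seen, was in 3 of 5 and in 14.1% of all windows. It began at -64 in Prm1 as TGACTTCA, at -60 in Prm3 as TGAGGTCA and at -94 in Tnp1 as TGATGTCA. The letters TATA, part of a common core promoter motif and also chosen after the letters were seen, began between -40 and -20 in Prm1 (at -32), Prm2 (at -29 and -27) and Tnp2 (at -35 and -33). Of all windows, 5.81% had TATA there on the gene's strand. TATAAA was in 1 of 5 windows (Prm2, on the opposite strand, overlapping its TATA) and in 13.6% of all, and CCAAT was in 1 of 5 (Prm3) and in 37.4% of all. Prm1 was the only member whose window held both TGANNTCA and the placed TATA. Another gene, 1700027A15Rik, starts 137 bases before Tnp1 on the plus strand, inside the stretch printed for Tnp1.

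RNA of these genes was among the most abundant free RNA in both libraries. Prm2 and Prm1 ranked 2 and 3 among all genes there, and the 5 members together made up 4.26% of free UMIs in control and 3.62% in cKO. A free-RNA barcode held on average 19.7 Prm1, 19.8 Prm2, 1.70 Prm3, 7.85 Tnp1 and 7.80 Tnp2 UMIs in control. In cKO the means were 11.5, 12.1, 0.992, 4.22 and 4.03. Presence of a few UMIs in a cell therefore did not mark expression. Each captured molecule counts as 1 UMI whatever its length, so UMIs of different members were set side by side without division by length. Whether the members were captured equally well was not tested.

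Stages were gated with 8 marker genes each, none of them a member, and a cell was named for a stage when its score led the next by 0.25. Control cells comprised 241 spermatogonia-like, 1225 early spermatocyte-like, 1519 late spermatocyte-like, 1766 round spermatid-like and 4614 elongating spermatid-like cells. The cKO library had 208, 759, 1160, 1674 and 3326. Another 1675 control and 1192 cKO cells passed no gate, among them cells that passed more than 1 somatic gate, and no doublet caller was run. Within 0.1 of the gate's margin lay 218 control and 143 cKO elongating spermatid-like cells. A stage is therefore a range along scores, not a separate type. Elongating markers had medians of 198 and 180 UMIs per 10000 in elongating spermatid-like cells of control and cKO, against 66.6 and 49.9 in round spermatid-like, 8.02 and 6.21 in late spermatocyte-like and 14 and 9.32 in Leydig-like cells. Round markers had medians of 40.0 and 40.7 in round and of 5.84 and 4.27 in elongating spermatid-like cells. In spermatogonia-like cells, spermatogonia markers had medians of 15.1 and 18.0 and early spermatocyte markers 18.2 and 15.4.

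Before meiosis and during it, the members stayed near the level of free RNA. Median Prm1 was 24, 22 and 32 UMIs per cell in control spermatogonia-like, early and late spermatocyte-like cells, and 15, 16 and 24 in cKO. Leydig-like cells, somatic cells that should lack the mRNA, had medians of 22 and 14.5. Median Prm2 was 23, 21 and 28 in the same control stages and 15, 15 and 21 in cKO, against 19.5 and 13 in Leydig-like cells. Median Tnp1 and Tnp2 were 9 to 12 UMIs in these control stages and 5 to 9 in cKO, against 7 and 8 (control) and 5 and 4.5 (cKO) in Leydig-like cells. Median Prm3 was 1 or 2 in every one of these stages and in Leydig-like cells of both libraries. Late spermatocyte-like cells had the highest of these medians and also the most UMIs per cell, with median depths of 22543 and 19694. Means ran above medians, as for Prm1 in spermatogonia-like cells (54.0 UMIs in control and 79.2 in cKO), and the 90th percentile lay at 74 and 82.5 UMIs. Sertoli-like cells, the somatic cells that nurse the germ cells, had Prm1 medians of 27.5 and 20 and 90th percentiles of 597 and 243. A few somatic and early germ cells therefore held far more member UMIs than free RNA would give, and the part of doublets in them was not tested.

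**Figure D1:**
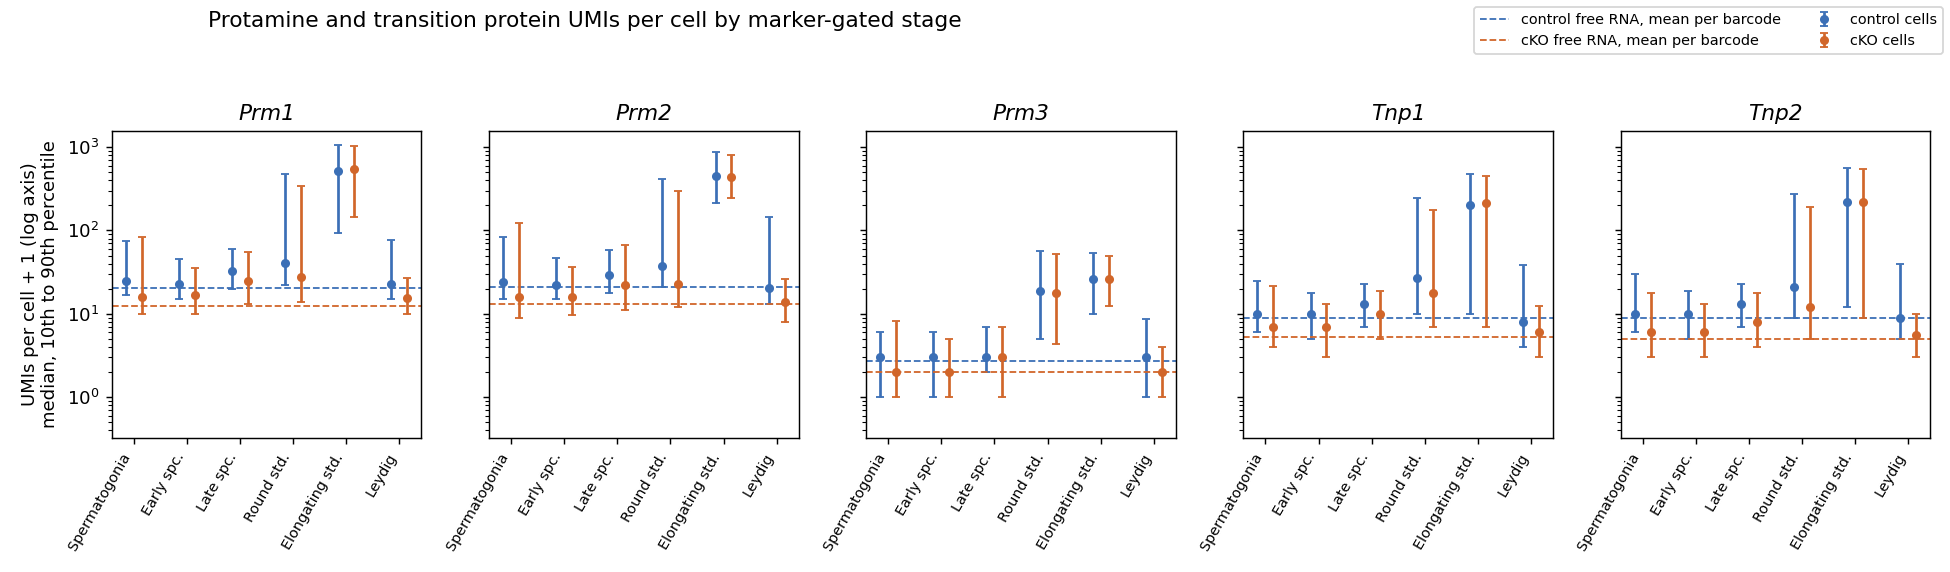
UMIs of each member per cell + 1 on a log axis, by marker-gated stage (spc., spermatocyte-like; std., spermatid-like), with points at the median, bars from the 10th to the 90th percentile of cells, and dashed lines at the mean of free-RNA barcodes. Spermatogonia-like to late spermatocyte-like medians lie near the dashed lines, Prm3 is raised in round spermatid-like cells, and all 5 members are highest in elongating spermatid-like cells.

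Prm3 differed from the other members in round spermatid-like cells. Its median there was 18 UMIs in control (10th to 90th percentile 4 to 55) and 17 in cKO (3.3 to 51), against free-RNA means of 1.70 and 0.992. Elongating spermatid-like cells, which held fewer UMIs in all, had medians of 25 and 25. With every cell thinned to 3000 UMIs the Prm3 medians were 4 and 4 in round and 11 and 12 in elongating spermatid-like cells. Thinned to 3000 UMIs per cell, 93.8% of control and 92.8% of cKO round spermatid-like cells had a Prm3 UMI (99.4% and 99.1% unthinned). Leydig-like cells had 54.1% and 40.6% (82.7% and 68.8% unthinned), at median depths of 8144 and 6726 UMIs against 13075 and 12130 in round spermatid-like cells. The other members had low medians and long upper tails in round spermatid-like cells. Median Prm1 was 40 in control (21 to 472) and 27 in cKO (13 to 342), median Prm2 36 (20 to 408) and 22 (11 to 297), median Tnp1 26 (9 to 242) and 17 (6 to 174), and median Tnp2 20 (8 to 270) and 11 (4 to 188). These medians were far below those of elongating spermatid-like cells, and in cKO those of Prm1 and Prm2 were close to the 24 and 21 of late spermatocyte-like cells. In CPM the 4 genes lay below free RNA in round spermatid-like cells, by log2 differences of -0.57 (Prm1), -0.77 (Prm2), -0.20 (Tnp1) and -0.06 (Tnp2) in control and of -0.91, -1.20, -0.40 and -0.28 in cKO. Prm3 lay above it, by 0.35 and 0.42. As mean UMIs per cell, every member stood above a free-RNA barcode. Prm1 had 159 and 109 against 19.7 and 11.5, and Tnp2 had 89.2 and 59.0 against 7.80 and 4.03. The mean UMIs of a free-RNA barcode equalled 8.37% and 5.61% of those of a round spermatid-like cell. The CPM differences compare shares and do not place the 4 genes at background. The 90th percentile of Prm1 lay at more than 10 times its median in both libraries.

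Elongating spermatid-like cells held most of the mRNA. The 5 members made up 20.4% of their UMIs in control and 22.6% in cKO, with means of 1614 and 1620 member UMIs per cell. Prm1 was the most abundant, at 73355 CPM in control (95% interval 73267 to 73443) and 83932 in cKO (83815 to 84048). Prm2 followed with 65167 and 69809 CPM, then Tnp2 with 33791 and 36294, Tnp1 with 28501 and 32197, and Prm3 with 3683 and 4004. The order Prm1, Prm2, Tnp2, Tnp1, Prm3 was the same in both libraries. Spread over cells was wide for the transition proteins. Median Prm2 was 450.5 UMIs (10th to 90th percentile 215 to 872) in control and 433 (246 to 802) in cKO, so that even the 10th percentile stood far above the free-RNA means of 19.8 and 12.1. Median Tnp1 was 201 (9 to 470) in control and 215 (6 to 446) in cKO, and the 10th percentiles lay near the free-RNA means of 7.85 and 4.22. Relative to free RNA in CPM, the members were higher by 1.53 (Prm3) to 2.53 (Tnp2) on the log2 scale in control and by 1.87 to 3.03 in cKO. With barcodes of 10 to 99 UMIs as free RNA these values were 2.55 (Prm3) to 2.80 (Prm2) in control and 2.91 (Tnp1) to 3.05 (Prm2) in cKO, so the size for Prm3 and the order of the members rested on which barcodes stood for free RNA.

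The order of the members was read along a marker axis from round to elongating spermatids, and this order was not tied to time. Cells whose leading score was either of these stages, ungated ones included, were placed by their elongating minus their round marker score and cut into 8 bins of equal size over both libraries. The members were in neither marker list, but their UMIs were part of the cell totals by which marker counts were divided. Median depth was 7650 (control) and 7614 (cKO) UMIs in bin 4 and 5167 and 4716.5 in bin 8. In both libraries Tnp2 had its highest CPM in bin 5, Tnp1 in bin 6, Prm1 in bin 7, and Prm2 and Prm3 in bin 8. The same order of bins came from the first 4 and from the last 4 markers of each list, chosen after the data were seen. Differences between neighbouring bins were small near the top. In cKO, Tnp2 had 42256 CPM in bin 4 and 42307 in bin 5, whose counting intervals overlap, and Tnp1 had 36484 in bin 6 and 35830 in bin 7. Mean UMIs per cell, which are not divided by the UMIs of other genes but follow cell depth, gave a less distinct order. Their highest bin was 5 (control) and 4 (cKO) for Tnp2, 6 and 5 for Tnp1, 7 and 7 for Prm1, 8 and 7 for Prm2, and 7 and 7 for Prm3.

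**Figure D2:**
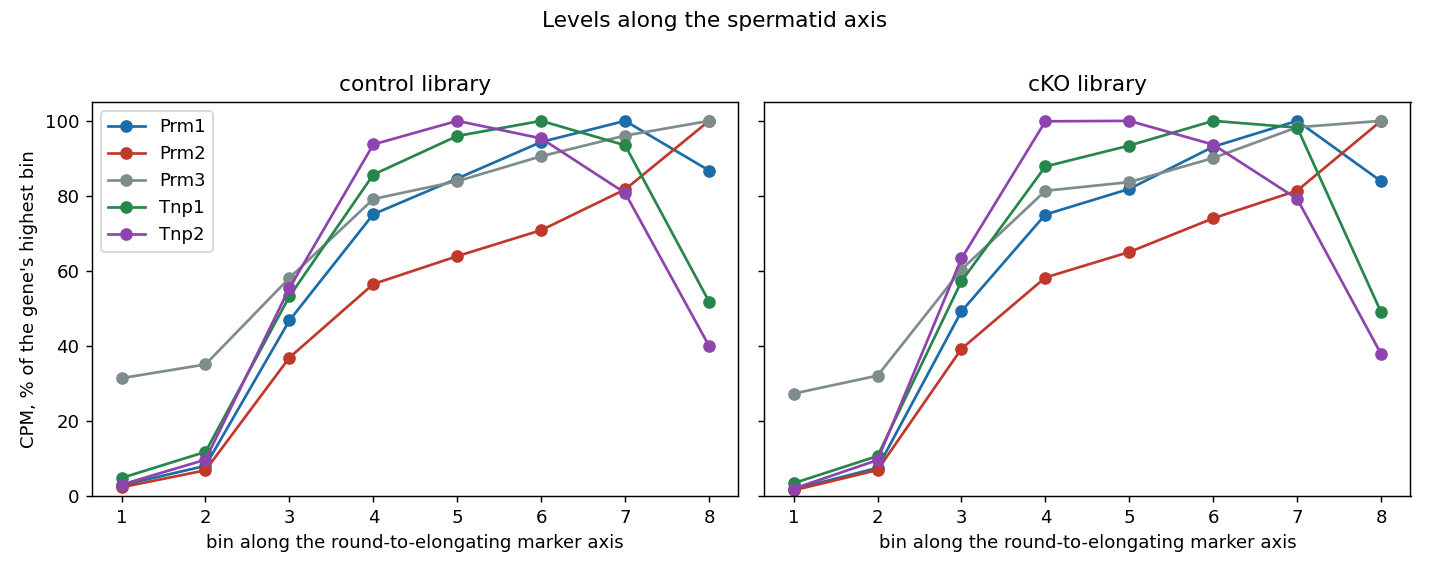
Level of each member in CPM, as a percentage of its own highest bin, in 8 bins from round (bin 1) to elongating spermatid markers (bin 8), for the control and the cKO library. Tnp2 and Tnp1 drop to 37.9% to 51.9% of their highest bin in bin 8, Prm1 to 83.9% and 86.8%, and Prm2 and Prm3 are highest there.

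From bin 1 to bin 4, Prm1 went from 2455 to 63079 CPM in control and from 1796 to 72590 in cKO. Prm2 went from 2151 to 50708 CPM in control and from 1494 to 55058 in cKO, and went on to 89702 and 94489 in bin 8. Tnp1 went from 1597 CPM in bin 1 to 32852 in bin 6 and back to 17036 in bin 8 of control, and from 1267 to 36484 and 17880 in cKO. Tnp2 went from 1233 CPM to 39968 in bin 5 and to 16005 in bin 8 of control, and from 851 to 42307 and 16019 in cKO. In bin 8 the mean Tnp1 level was 109 UMIs per cell in control, but the median was 14, and in cKO they were 98.1 and 10. Many cells of bin 8 therefore held little Tnp1 mRNA while others held much, and the shape of this spread was not examined. Prm3 began far higher relative to its own maximum. After free RNA was subtracted, its mean UMIs per cell in bin 1 were 69.7% (control) and 66.7% (cKO) of its highest bin, where those of the other members were 2.55% to 7.37%. In CPM, with free RNA included, bin 1 had 31.5% and 27.3% of the highest bin for Prm3 and 1.58% to 4.86% for the other members. Its means ran only from 22.0 UMIs in bin 1 to 30.8 in bin 7 of control and from 20.8 to 30.7 in cKO.

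The ratio of Prm2 to Prm1 UMIs moved along the same axis. It was 0.804 in bin 4, 0.807 in bin 5, 0.803 in bin 6, 0.873 in bin 7 and 1.23 in bin 8 of control. In cKO it was 0.758, 0.776, 0.777, 0.795 and 1.16. Prm1 to Tnp1 stood at 2.24 (control) and 2.26 (cKO) in bin 4 and at 4.28 and 4.54 in bin 8. In bins 1, 2 and 3 Prm2 to Prm1 was 0.876, 0.913 and 0.843 in control and 0.832, 0.903 and 0.779 in cKO. Prm1 was thus the more abundant protamine mRNA in bins 1 to 7, and Prm2 in bin 8, in both libraries. These are ratios of summed UMIs, and the ratio in single cells within bin 8 was not examined.

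Some elongating spermatid-like cells had transition protein UMIs near free RNA and high Prm2. Cells with both Tnp1 and Tnp2 at no more than 2 times the free-RNA mean, a bound chosen after the data were seen, were 649 of 4614 in control (14.1%, exact interval 13.1 to 15.1) and 357 of 3326 in cKO (10.7%, 9.70 to 11.8). The bound fixes their Tnp levels, which are no finding. Their median Prm2 was 403 UMIs in control (268 to 615) and 400 in cKO (297 to 616), where the remaining elongating spermatid-like cells had 464 and 440. Their median Prm1 was 79 (28 to 258) and 93 (36.6 to 247), where the remaining cells had 581 and 589. The ratio of their summed Prm2 to their summed Prm1 UMIs was 3.67 and 3.59, against 0.808 and 0.771 in the others. Prm3 had medians of 12 and 14 UMIs, against 28 and 27. Their median Prm2 of 403 and 400 UMIs came at a lower depth, so that in CPM Prm2 was higher in them, at 101418 and 112513 against 62252 and 67199. Elongating markers were also higher in them in CPM, a scale on which lower depth raises the value of an equal UMI count: Smcp, which encodes a protein of the sperm mitochondrial sheath, was at 15345 and 13622 CPM against 8275 and 7376, and Odf1, a component of the outer dense fibres of the tail, at 1031 and 994 against 558 and 536. Acrv1, a round spermatid marker, was higher in these cells too, at 63.1 and 61.2 CPM against 43.6 and 26.9. Smcp and Odf1 had also been used in the gate. Only 56.9% and 59.4% of these cells fell in bin 8, so the marker axis and the transition protein level did not order cells in the same way.

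**Figure D3:**
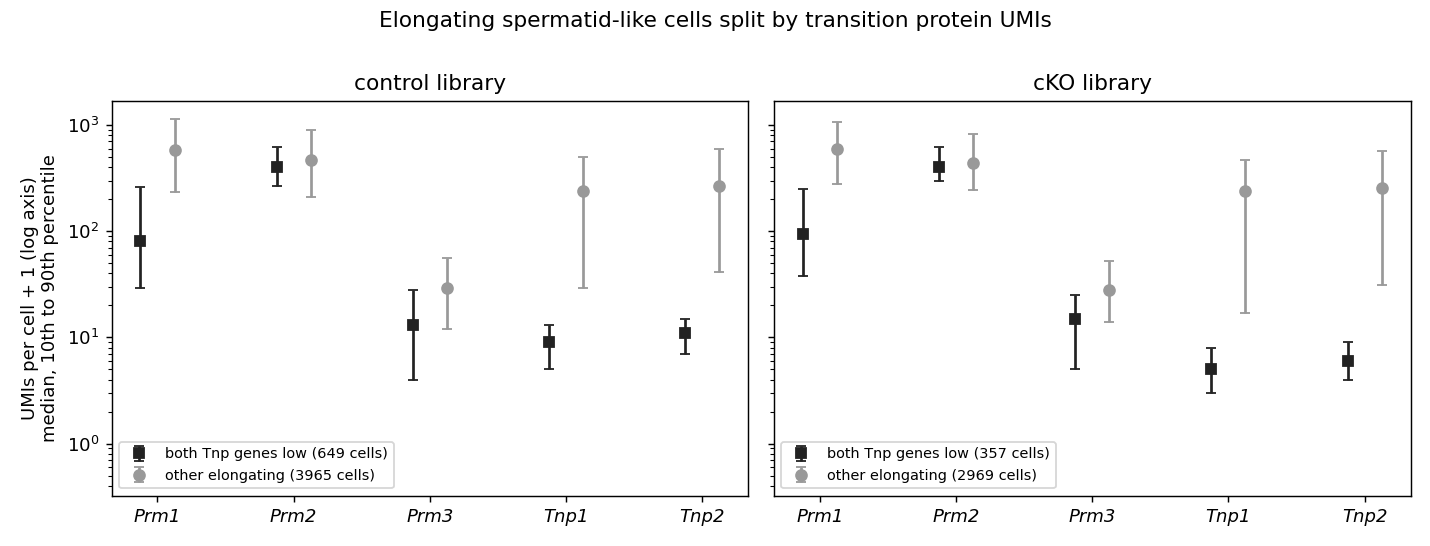
UMIs per cell + 1 on a log axis for each member (median, bars from the 10th to the 90th percentile of cells) in elongating spermatid-like cells with both Tnp genes at no more than 2 times free RNA (squares) and in the others (circles), for each library. Prm2 overlaps between the cell sets, at medians of 403 and 464 in control, while Prm1 is at 79 against 581.

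These cells were shallow. Of them, 82.1% in control and 92.4% in cKO had fewer than 5000 UMIs, at median depths of 3910 and 3591, against 22.1% and 28.0% of the other elongating spermatid-like cells. Below the minimum, 793 of 4795 control barcodes with at least 2000 and under 3000 UMIs (16.5%, exact interval 15.5 to 17.6) and 958 of 2316 cKO barcodes (41.4%, 39.3 to 43.4) still held at least 100 Prm2 UMIs, 5 or more times the free-RNA mean. Their median Prm2 was 160 and 217 UMIs, their median Prm1 61 and 74 and their median Tnp1 10 and 6. Of all barcodes with at least 1000 UMIs in total and 100 of Prm2, 13.8% in control (959 of 6928) and 25.7% in cKO (1491 of 5798) lay under 3000 UMIs. These barcodes were chosen by their Prm2 UMIs and passed no marker gate, so they are not shown to be late spermatids, and their Prm2 level is no finding. Such barcodes were also among those taken as free RNA: 0.315% of control and 2.97% of cKO barcodes from 1000 to under 2000 UMIs held at least 100 Prm2 UMIs. Over all barcodes from 2000 to under 3000 UMIs, Prm2 to Prm1 was 1.35 in control and 1.78 in cKO. Equal UMI ranges were not alike in the libraries. Most free-RNA barcodes of control had 1000 to under 2000 UMIs (52678), and most of cKO had 300 to under 1000 (48945). The shares given here, and those of the low-Tnp cells above the minimum, are therefore not read as differences between genotypes.

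The design sets germ-cell loss of Kdm6a against control. Over all cells the 5 members made up 7.35% of control UMIs and 7.04% of cKO UMIs (log2 ratio of cKO over control -0.06, interval -0.064 to -0.061). Prm1 was at 26066 and 25694 CPM (log2 ratio -0.02), Prm2 at 23110 and 21477 (-0.11), Prm3 at 1580 and 1572 (-0.01), Tnp1 at 10435 and 10147 (-0.04) and Tnp2 at 12301 and 11469 (-0.10). Of the 5, 0 were past 0.5 in either direction, where 3.19% of 19100 genes with at least 50 UMIs were (0.529% higher and 2.66% lower). With every cell thinned to 3000 UMIs, which gives each cell the same weight, the log2 ratio of all 5 together was 0.05 and those of the single members 0.00 to 0.11, so the direction over all cells changed with the weighting.

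In elongating spermatid-like cells the log2 ratio of all 5 was 0.15 (0.14 to 0.15) in CPM. It was 0.19 for Prm1, 0.10 for Prm2, 0.12 for Prm3, 0.18 for Tnp1 and 0.10 for Tnp2, and 0 of 5 were past 0.5, where 7.43% of 13209 genes were (0.341% higher and 7.09% lower). The median over all those genes was -0.11, and cKO cells of this stage held fewer UMIs (median 6136 against 6723). As mean UMIs per cell, a scale added after the data were seen, the members had log2 ratios of 0.05, -0.04, -0.02, 0.04 and -0.04 in the same order, and 0.01 together. Prm2, Prm3 and Tnp2 thus differed in sign between the scales.

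Round spermatid-like cells had lower levels of these mRNAs in cKO. In control 3.099% of their UMIs came from the 5 members and in cKO 2.12%, which is 495 and 343 UMIs per cell (log2 ratio in CPM -0.55, interval -0.55 to -0.54). Prm1 was at 9938 and 6770 CPM (-0.55), Prm2 at 8721 and 5801 (-0.59), Tnp1 at 5119 and 3539 (-0.53) and Tnp2 at 5591 and 3658 (-0.61), while Prm3 was at 1621 and 1467 (-0.14). Lower by at least 0.5 were 4 of 5 members and 7.48% of 14134 genes (1.11% were higher and 8.59% past it in either direction). The log2 ratio in CPM of all 5 together was -0.63 in Leydig-like cells, which should lack the mRNA, -0.41 in early and -0.13 in late spermatocyte-like cells and -0.23 in free RNA (-0.79 as UMIs per barcode). It was above 0 in elongating spermatid-like cells, as given, and in spermatogonia-like cells (0.58). The Leydig-like sums came from 98 and 96 cells. Their mean Prm1 was 67.4 and 38.4 UMIs, against medians of 22 and 14.5, so a few cells weighed heavily. After free RNA was subtracted, 139 and 77.8 member UMIs per Leydig-like cell were left. With the free-RNA mean subtracted from each round spermatid-like cell, 438 and 310 UMIs per cell were left, a log2 ratio of -0.50 for all 5 together. The libraries also differed in the place of cells along the axis, and its part in the difference was not tested. Bin 1, at the round end, held 611 of 7070 control cells on the axis (8.64%) and 956 of 5463 cKO cells (17.5%). Bin 2 held 12.5% of both, and bin 3 held 14.7% and 9.65%. These are shares of all cells on the axis, not of round spermatid-like cells. Gated as round spermatid-like were 98.7% (control) and 97.4% (cKO) of the cells of bin 1. In bin 2 they were 86.5% and 84.2%, and in bin 3 38.6% and 31.5%. Within bin 2 the log2 ratios in CPM were 0.10 for Prm1, 0.09 for Prm2, -0.03 for Prm3, 0.01 for Tnp1 and 0.07 for Tnp2. As UMIs per cell the same bin gave -0.04, -0.05, -0.17, -0.13 and -0.08, so that 4 of 5 members differed in sign between these scales. With free RNA subtracted, UMIs per cell gave 0.08, 0.07, -0.13, -0.05 and 0.01, where only Tnp1 differed in sign from CPM. Within bin 1 the log2 ratios in CPM were -0.45, -0.53, -0.10, -0.33 and -0.53, and -0.18, -0.29, -0.04, -0.13 and -0.31 as UMIs per cell after free RNA was subtracted, which was itself lower in cKO.

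**Figure D4:**
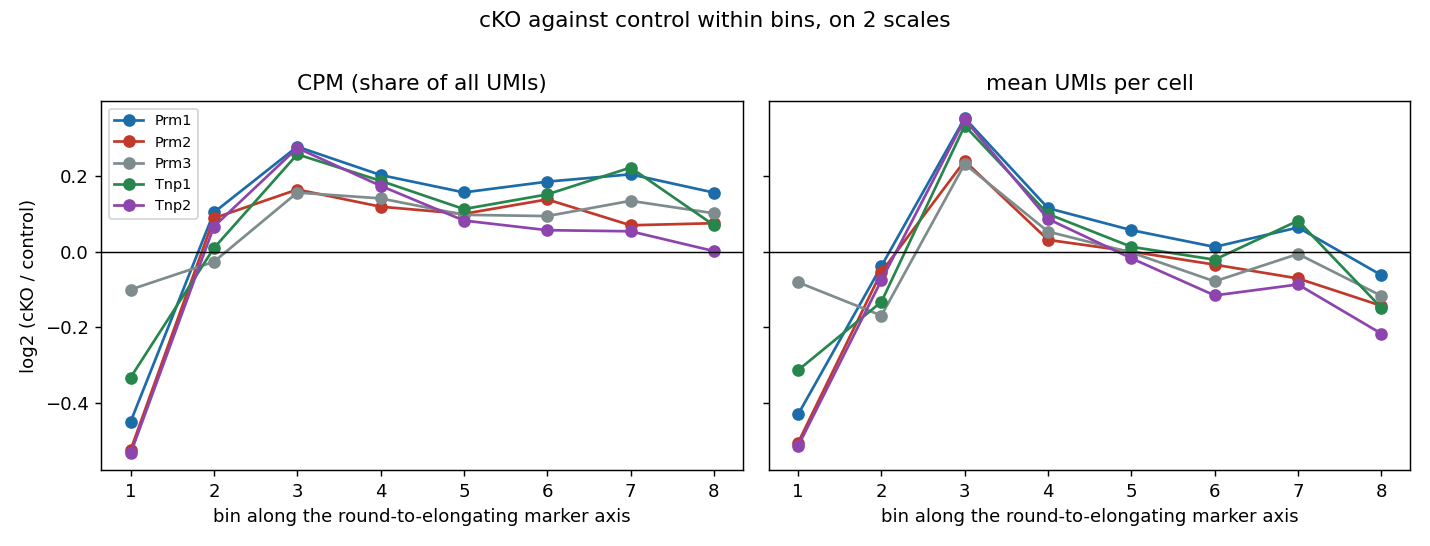
Log2 ratio of cKO over control for each member within each of the 8 bins, as CPM and as mean UMIs per cell, with a line at 0. In CPM 34 of 40 values lie above 0, and as UMIs per cell 15 of 40 do. The values are not independent, and no such count was made over all genes. Bin 1 is below 0 and bin 3 above 0 on both scales for each of the 5 members.

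Over the 5 members and 8 bins, 34 of 40 log2 ratios in CPM were above 0, with a median of 0.10 (-0.53 to 0.28). As UMIs per cell 15 of 40 were above 0, with a median of -0.03 (-0.52 to 0.35). As UMIs per cell after free RNA was subtracted, 21 of 40 were above 0, with a median of 0.02 (-0.31 to 0.39). The 40 values share libraries and, in CPM, cell totals, so they are not independent. No such count was made over all genes, and these counts are no finding. The highest values were in bin 3, at 0.16 to 0.28 in CPM. That bin mixed cells of unlike depth in the libraries, with medians of 6493 UMIs in control and 8296 in cKO, and 38.6% and 31.5% of its cells were gated as round spermatid-like. From bin 4 to bin 8 the values ran from 0.00 (Tnp2, bin 8) to 0.22 (Tnp1, bin 7) in CPM and from -0.22 to 0.11 per cell. Spermatogonia-like cells went the other way from round spermatid-like cells, with 1.999% of UMIs from the members in control and 2.98% in cKO, but their median UMIs were near free RNA and the excess lay in the few cells with many UMIs.

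The genes around the members came from 3 lists. Of 10 genes of transcription, 1 was lower by at least 0.5 over all cells and 4 in elongating spermatid-like cells, against 2.66% and 7.09% of all tested genes, and 0 were higher. In round spermatid-like cells 1 of 10 was lower, against 7.48%. Their median log2 ratios were -0.24 over all cells, -0.16 in round and -0.32 in elongating spermatid-like cells, where all genes had -0.02, 0.00 and -0.11. Crem, whose protein activates these promoters, was at 229 CPM in control and 268 in cKO over all cells, highest in round spermatid-like cells (466 and 509). Fhl5, which encodes its coactivator, was at 569 and 483 CPM there and highest in bin 3. Kdm3a, which encodes a histone H3 lysine 9 demethylase needed for Prm1 and Tnp1 transcription, was at 57.9 and 39.9 CPM over all cells (-0.53). In early spermatocyte-like cells, its highest stage, Kdm3a was at 166 and 136 CPM. These cells were 10.9% of control and 8.91% of cKO cells, and the part of cell shares in the all-cell value was not tested. In elongating spermatid-like cells the 4 lower genes were Kdm3a (-0.58), Sox30 (-0.61), Rnf17 (-0.59) and Brwd1 (-0.84), at 4.66 to 92.5 CPM. For Kdm3a and Brwd1 the ratio cannot be read for the stage, since their means were near those of a free-RNA barcode. They had 0.0886 and 0.0722 UMIs per control cell and 0.0514 and 0.0334 per cKO cell. A free-RNA barcode had 0.0782 and 0.0471 in control and 0.0403 and 0.0247 in cKO. Tbpl1 and Taf7l were near free RNA in this stage too, with 0.732 and 0.0388 UMIs per control cell against 0.625 and 0.0292. The list's median for the stage thus includes genes near free RNA. Sox30 and Rnf17 stood above free RNA, with 0.730 and 0.459 UMIs per control cell against 0.150 and 0.211. RNF17 is a germ-cell Tudor-domain protein and BRWD1 a bromodomain protein of chromatin. In round spermatid-like cells Sox30, which encodes a transcription factor of round spermatids, was at 189 and 133 CPM (-0.50).

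Of 10 genes of mRNA storage and translation, 0 were past 0.5 over all cells, in round or in elongating spermatid-like cells, where 3.19%, 8.59% and 7.43% of all tested genes were. The list's median in elongating spermatid-like cells was -0.24, where all genes had -0.11. Some of its genes were near free RNA there, as Ptbp2, with 0.126 and 0.0929 UMIs per cell against 0.109 and 0.0721 per free-RNA barcode. As UMIs per cell after free RNA was subtracted, the list's log2 ratios ran from -0.63 (Elavl1) to 0.32 (Ptbp2). The median is therefore not read as a change of the list in this stage. In CPM over all cells, the log2 ratios of the 10 genes ran from -0.33 to 0.17. Ybx2, which encodes the Y-box protein that coats stored mRNAs, was at 890 and 871 CPM over all cells and Ddx25, an RNA helicase of spermatids, at 374 and 381. Tarbp2, needed for protamine translation, was at 119 and 130 CPM, and Paip2, a regulator of poly(A)-binding protein, at 1147 and 1108 in elongating spermatid-like cells, its highest stage.

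Of 18 genes of histone-to-protamine exchange, 2 were lower by at least 0.5 over all cells and 0 higher, against 2.66% and 0.529% of all tested genes, with a list median of -0.07 where all genes had -0.02. They were Psme4, which encodes the proteasome activator that acts on acetylated histones, at 266 and 172 CPM (-0.63), and H1f6, the testis linker histone of spermatocytes (listed as Hist1h1t), at 119 and 65.0 CPM (-0.86). In early spermatocyte-like cells, its highest stage, H1f6 was at 369 and 270 CPM. These cells were 10.9% of control and 8.91% of cKO cells, and the part of cell shares in the all-cell value was not tested. In round spermatid-like cells 1 of 18 was lower by at least 0.5 (Psme4, -0.58), against 7.48% of all tested genes. In elongating spermatid-like cells 2 of the 17 that could be tested were, H1f6 (-1.06, at 13.8 and 6.13 CPM) and Psme4 (-0.55), against 7.09%. H1f6 was near free RNA there, with 0.109 and 0.0439 UMIs per cell against 0.0914 and 0.0381 per free-RNA barcode, so its ratio does not describe the stage. Psme4 stood above it, with 1.80 and 1.11 UMIs per cell against 0.393 and 0.181. Of the spermatid histones, 0 of the 3 named here were past 0.5 in either stage, where 8.59% (round) and 7.43% (elongating) of all tested genes were. With so few genes this count is no finding. Hils1, a linker histone-like gene, was at 1697 and 1645 CPM in elongating spermatid-like cells and highest in bin 4, H1f7 (listed as H1fnt), a spermatid linker histone, at 2166 and 2311 and highest in bin 5, and H2al2a, an H2A variant that opens nucleosomes to transition proteins, at 1502 and 1755 and highest in bin 8. In round spermatid-like cells Hils1 was at 1691 and 1625 CPM (-0.06), H1f7 at 867 and 698 (-0.31) and H2al2a at 362 and 258 (-0.49). The bin of H1f7 was that of Tnp2 in both libraries. Tssk6, Tbpl1 and Piwil1 of these lists also served as stage markers.

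Genes most like each member were ranked by Pearson's r of log2(CPM + 1) over 10 points, the 5 germ stages of both libraries, among 12813 genes with at least 500 UMIs. The points share libraries and free RNA, and many genes that are high only in elongating spermatids reach r over 0.99, so these values describe and test nothing. Ttc24 ranked 1 for both Prm1 (r = 0.9997) and Prm2 (0.9993), and Prm1 and Prm2 ranked 2 for each other (0.999). 1700027A15Rik, the neighbour of Tnp1, was among the 5 most like genes of Prm1 and of Prm2, at ranks 5 and 3. Tnp2 ranked 1 for Tnp1, and Oxct2a, a spermatid ketone-body enzyme gene, ranked 1 for Tnp2. Prm3 had other company, with Actrt2, which encodes an actin-related protein of spermatids, at rank 1. Prm1 ranked 940 for Prm3 (r = 0.92). Over the 16 points of 8 bins in both libraries, an alternative chosen after the data were seen, Prm2 was at rank 48 for Prm1 and Tnp2 at rank 11 for Tnp1.

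Chromatin around the genes was available from cKIT+ spermatogonia, cells long before the members are transcribed. The member medians near free RNA were those of spermatogonia-like cells gated in whole testis, not of these sorted cells. H3K27me3 is the mark that KDM6A removes. H3K27me3 regions within 2 kb of a start site were called for Prm1 in 2 of 2 control and 2 of 3 cKO libraries, for Prm2 in 2 of 2 and 2 of 3, for Prm3 in 1 of 2 and 2 of 3, and for Tnp2 in 0 of 2 and 2 of 3. Of 17492 coding genes with a RefSeq promoter, such a region was called at 14.2% and 16.7% in control 1 and 2 and at 9.68%, 12.1% and 15.4% in cKO 1 to 3. The 4 genes share the regions, so they are 1 place and not 4 independent hits. Tnp1 had no region within 10 kb in any library, and the IgG library had none near any member, with 0.938% of genes called.

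The region in control 1 at chr16:10795877-10797620 covered the Prm1 start, with a highest signal of 92 by the authors' values, and a second region at chr16:10793575-10795250 lay between Prm1 and Prm2. In control 2, regions at chr16:10794048-10797823 and chr16:10790827-10793368 covered the starts of Prm1, Prm2 and Prm3. cKO 3 had a region of 9561 bases, chr16:10790603-10800163, over the same 3 starts, and another of 9665 bases, chr16:10802750-10812414, farther before Prm1. Control 2 also had regions on both sides of the cluster, at chr16:10800625-10803452 and chr16:10780022-10782544. cKO 1 had chr16:10789232-10792856, over Prm2 and Prm3 but not Prm1, and cKO 2 only chr16:10798343-10799849, before Prm1. Every library thus had a called region at the cluster, and no boundary was shared. By the deposited names all but cKO 2 were downsampled, their depth is unknown, and no test between genotypes was run.

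**Figure D5:**
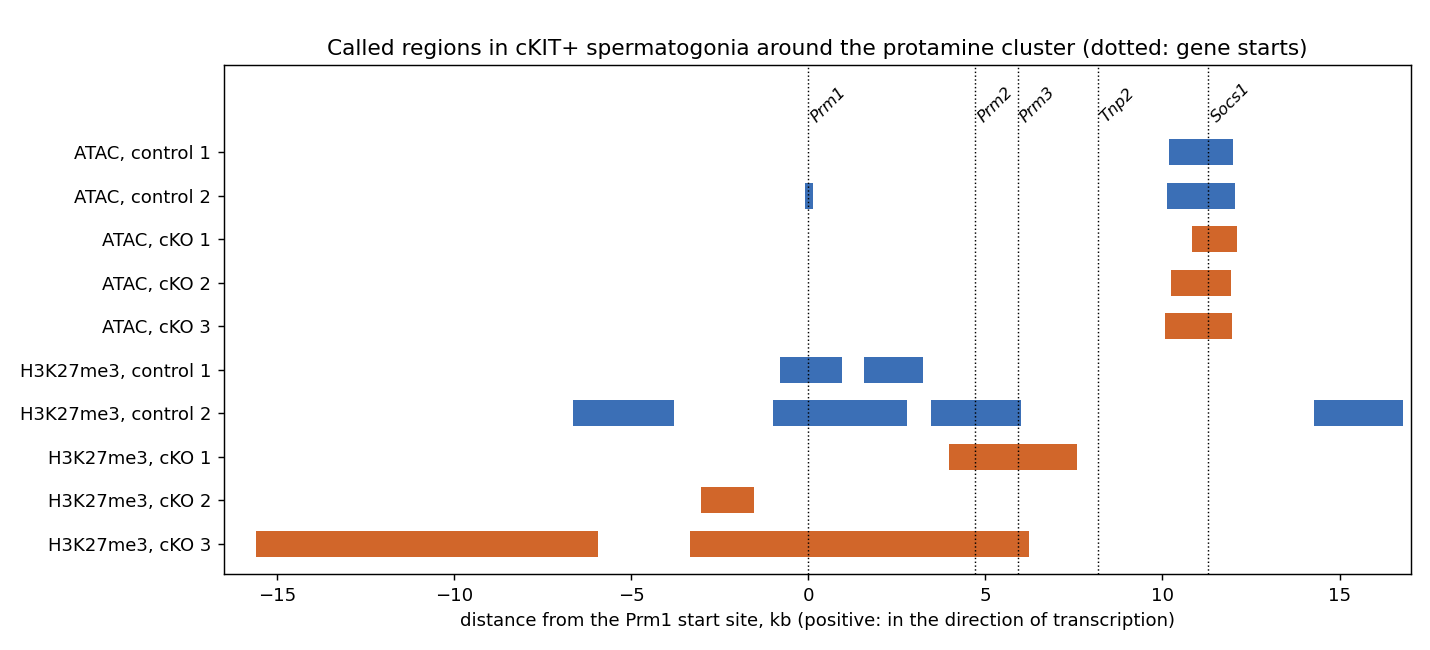
Regions called per library in cKIT+ spermatogonia (bars; 2 control and 3 cKO libraries per assay), by distance from the Prm1 start site in kb, with dotted lines at gene starts. H3K27me3 regions lie within 2 kb of the Prm1 start site in 2 of 2 control and 2 of 3 cKO libraries, and within 10 kb in every library. Their boundaries are unlike, and the ATAC regions common to all 5 libraries lie at Socs1.

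Open chromatin was called at a member in few libraries. A peak at the Prm1 start (chr16:10796678-10796906, fold enrichment 3.28, -log10 q of 2.09) was in control 2 and in none of the other 4 ATAC libraries. Tnp2 had a peak within 2 kb in 1 of 2 control and 1 of 3 cKO libraries, and these were the near ends of the peaks at Socs1, the next gene, which all 5 libraries had. Prm2, Prm3 and Tnp1 had 0 of 5. Of the coding genes, 49.8% and 61% had such a peak in the controls and 39.5%, 48.2% and 64% in cKO 1 to 3.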

How the data were processed

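The deposited single-cell matrices hold UMI counts per gene and barcode. Their headers give Cell Ranger 4 as the software, and mm10 comes from the submitters' processing notes. No cells had been selected in the deposited counts. ATAC peaks (MACS2, per the submitters' processing notes) carry the authors' fold enrichment, a ratio, and -log10 q. H3K27me3 regions (SEACR, per the same notes) carry the authors' signal, and by the deposited names 4 of 5 libraries, all but cKO 2, were downsampled. Regions were called per library.

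Marker scores were mean z-scores of log-normalised counts. Somatic gates needed 3 markers and 10 UMIs, and the spermatogonia-like gate 3 markers. Log2 ratios of the other genes used CPM + 1, and genes needed 50 UMIs. Members and lists were chosen with earlier results of these data known. Fixed naming covered the 5 members, 3 lists and the 5 most like genes of each member. Intervals are exact Poisson, binomial or conditional binomial. The interval of the log2 ratios and the ranking by likeness were tested on simulated data, and the other steps were not. Python 3.11.15, numpy 2.4.6, scipy 1.17.1 and pandas 2.3.3 were used. Bulk transcript files were not used here, nor were protein sequences.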

Additional observations from a re-analysis of the deposited data

How the results depend on the processing

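The log2 ratio of all 5 members in all cells (-0.06) was -0.0173 at a minimum of 2000 UMIs, -0.13 at 5000, -0.0678 as a share of the UMIs of other genes, -0.0804 after subtraction of free RNA and 0.0541, a reversed sign, with cells thinned to 3000 UMIs. Chosen after seeing the data, UMIs per cell gave -0.0851, cells with at most 10% mitochondrial UMIs -0.0581 and cells under 30000 UMIs -0.0828. Thinning reversed Prm1 (0.11), Prm2 (0.00132), Prm3 (0.068), Tnp1 (0.0729) and Tnp2 (0.0107), and the minimum of 2000 UMIs Prm1 (0.0149) and Prm3 (0.0173). In elongating spermatid-like cells (0.15) the same settings gave 0.154, 0.13, 0.19, 0.0954 and 0.17, the stricter gate (0.5) 0.14, cells under 30000 UMIs 0.149 and UMIs per cell 0.00612, which reversed Prm2 (-0.0404), Prm3 (-0.0192) and Tnp2 (-0.0365). The cause was not tested. Pairs of member and library with a region within 2 kb numbered 5 (control) and 8 (cKO) for H3K27me3 and 2 and 1 for ATAC. They come from 2 control and 3 cKO libraries per assay, so the counts of the groups cannot be set side by side. By library, 9.68% to 16.7% of coding genes had such an H3K27me3 region and 39.5% to 64% an ATAC peak. Within 10 kb the pairs numbered 8 and 12, and 7 and 9, where 13.7% to 22.9% and 46.1% to 72.3% of coding genes were called. Leaving out 1 library gave 2 to 3 and 4 to 7 for H3K27me3 (without control 1 or 2, and without cKO 1 to 3), and 0 to 2 and 0 to 1 for ATAC, where control 2 and cKO 3 held all pairs. The bulk RNA test and its alternatives (replicate block, DESeq2, no filter, leave-one-out) were not run, since no table used here pairs transcript IDs with genes. No paired analysis was possible because each genotype has 1 single-cell library. Free RNA, the minimum of UMIs and the lack of replicates limit these values.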
